A study of Mus musculus with 4 samples.

Results

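Voltage-gated calcium channel subunits and sarco/endoplasmic reticulum calcium pumps (SERCA) were examined in mouse islets of Langerhans with and without knockdown of Tafazzin. The 10 genes were taken by symbol from the deposited table: the pore-forming subunits Cacna1a, Cacna1c, Cacna1d, Cacna1e and Cacna1h, the auxiliary subunits Cacnb2, Cacnb3 and Cacna2d1, and the pumps Atp2a2 and Atp2a3. All 10 had a row among the 24940 of the table, and 9 passed the filter on low values and were tested. Cacna1e did not pass it. Total RNA depleted of ribosomal RNA was sequenced from 2 control pools (replicates 1 and 2), from mice without a transgene, and 2 Tafazzin-knockdown pools (replicates 3 and 4). All mice were males of 3 to 4 months on low-fat chow, and each library came from about 300 islets of 2 to 3 mice. Because the controls carry no transgene, Tafazzin depletion and the transgene cannot be told apart. P-values rest on the spread between these pools. For limma on deposited units this spread is taken from genes of like level and not from each gene itself.

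In a beta cell, closure of potassium channels by glucose metabolism depolarises the membrane, voltage-gated calcium channels open, and the calcium that enters triggers insulin release. The α1 subunit forms the pore and sets the channel type, the β subunit brings the pore to the membrane and tunes its opening, and the α2δ subunit is extracellular and raises the surface density of channels. SERCA pumps move cytosolic calcium into the endoplasmic reticulum, which keeps the store filled for prohormone folding and for later release. Tafazzin remodels cardiolipin, the signature lipid of the inner mitochondrial membrane.

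One unit below means 1 read in 10000000 of a library. One read is worth 0.123 to 0.145 units. Library totals lay between 68823160 and 81073502 reads, of which 3756898 to 4335082 fell in genes outside the 15 rows above 25000 units. The region counted and the use of strand are not given in the sources used here. The length column is the genomic span in 99.2% of rows, so reads over introns may enter a value. Reads of a gene on the opposite strand did so in 1 clear case: Slco1a5, whose span holds the hormone gene Iapp on the other strand, stood at 9986, 7525, 7984 and 9341 units in control replicates 1 and 2 and knockdown replicates 3 and 4, next to 9765, 7376, 7799 and 9121 for Iapp. In control replicate 2 most genes stood low: it was the lowest of the 4 libraries in 63% of the 13531 tested genes, and in 8 of the 9 tested channel and pump genes. After median-ratio scaling, which equalises the typical gene across libraries, it was the lowest in 23% of tested genes and in 4 of the 9. Control replicate 1 was the highest on deposited units in 5 of the 9, and in 31.1% of all tested genes. Both scales are therefore given for the genes the results turn on. Log2 fold changes are knockdown over control, minus the median of all tested genes (0.17 on deposited units, -0.01 after scaling), with the limma standard error (SE), and the limma p-values are for the change before this subtraction. Taz, the gene of Tafazzin, stood at 23.1 and 15.4 units without knockdown and 13.8 and 12.7 with it, a difference in the direction of the labels that did not pass the test (limma adjusted p = 0.529).

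Because paralogous genes can share reads, the longest stretch of identical coding bases was sought for each pair within a subfamily, in GENCODE M21 transcripts on GRCm38 (mm10). It was 44 bases for Atp2a2 and Atp2a3 and 43 for Cacna1c and Cacna1d. For the other 10 pairs it was 14 to 29 bases. The windows holding the 44 and 43 shared bases, with 24 bases on either side, are shown because the ratios within these 2 pairs are reported further on. Each is on the coding strand within 1 exon, with capitals marking the bases that differ between the paralogs (12 of 92 for the pumps and 15 of 91 for the channels).
Atp2a2, chr5:122459976-122460067, minus strand: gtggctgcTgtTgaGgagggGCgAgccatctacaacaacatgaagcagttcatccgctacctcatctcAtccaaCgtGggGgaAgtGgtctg
Atp2a3, chr11:72981857-72981948, plus strand: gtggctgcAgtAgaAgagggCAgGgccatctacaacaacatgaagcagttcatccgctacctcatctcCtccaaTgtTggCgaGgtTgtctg
Cacna1c, chr6:118654342-118654432, minus strand: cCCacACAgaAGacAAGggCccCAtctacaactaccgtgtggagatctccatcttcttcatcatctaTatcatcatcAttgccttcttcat
Cacna1d, chr14:30099130-30099220, minus strand: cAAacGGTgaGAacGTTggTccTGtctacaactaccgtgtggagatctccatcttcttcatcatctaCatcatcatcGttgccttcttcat
Reads that lie wholly inside the shared 44 or 43 bases cannot be assigned to one paralog. The read length is not given in the sources used here.

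No channel or pump gene passed the test between knockdown and control islets. Of the 9 tested genes 0 were called by limma after Benjamini-Hochberg adjustment at 0.05, and 0 had an unadjusted p under 0.05, where 2.53% (2.49% higher, 0.0443% lower) and 10.3% of all tested genes did. After scaling 0 were called by limma and 2, Cacna1c and Atp2a3, had an unadjusted p under 0.05, with 1.28% (1.12% higher, 0.163% lower) and 10.3% of all tested genes. The count test of edgeR and that of DESeq2 on the recovered reads called 0 each, with 1 gene, Atp2a3, at an unadjusted p under 0.05 in both. Of all tested genes edgeR called 1.43% (1.29% higher, 0.148% lower) with 10.3% at an unadjusted p under 0.05, and DESeq2 0.695% (0.613% higher, 0.0813% lower) with 5.39%. The median log2 fold change of the 9 genes was 0.004 on deposited units and 0.02 after scaling, 5 of the 9 lay above the median of all tested genes and 4 below it. On deposited units this median was 0.118 without control replicate 1, with 7 genes above and 2 below, and -0.144 without control replicate 2, with 3 above and 6 below. On deposited units the knockdown libraries both lay above both controls in 2 of 9 genes, Cacna1c and Cacnb3, as in 34.9% of all tested genes, and both lay below in 0 of 9 (4.49% of all). After scaling the same 2 lay above and 1, Atp2a3, lay below, where 20.4% and 20% of all tested genes did. These shares do not set the channel and pump genes apart. In such bulk pools fewer cells of a type and less RNA per cell cannot be told apart.

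**Figure D1:**
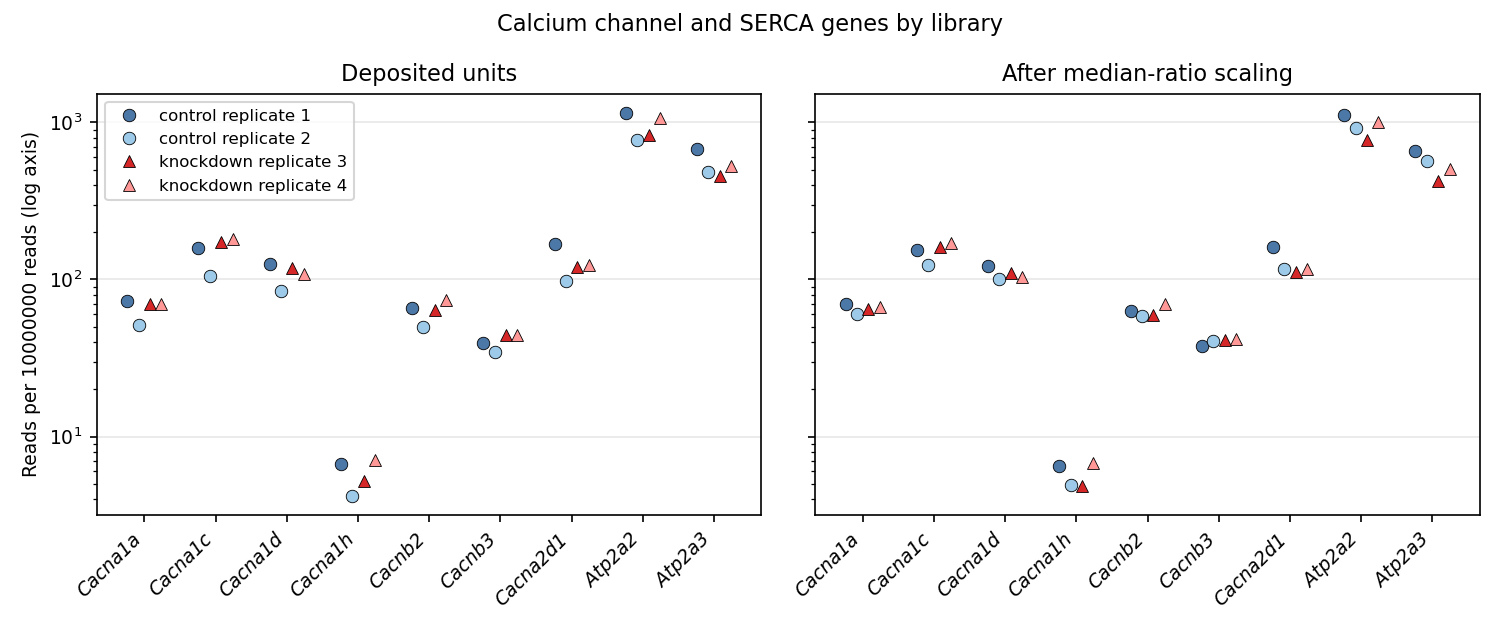
Level of the 9 tested genes in each library, in reads per 10000000 reads on a log axis, as deposited (left) and after median-ratio scaling (right); circles are controls and triangles knockdown libraries. Control replicate 2 is lowest for 8 of the 9 genes on the left and for 4 of 9 on the right, and the pumps stand highest.

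Cacna1c, the pore of one of the L-type channels and the main calcium channel of heart and smooth muscle as well as of mouse beta cells, spans 609 kb of chromosome 6 (118587240 to 119196409, minus strand). The controls gave 159.7 units (replicate 1) and 105 units (replicate 2), the knockdown pools 174 units (replicate 3) and 181 units (replicate 4). Both knockdown values exceeded both controls, but the 2 controls differed from each other 1.52-fold. The control mean was 132 ± 38.6 units and the knockdown mean 177 ± 4.59 (SD, n = 2 each), with a log2 fold change of 0.28 ± 0.23 SE (95% interval -0.17 to 0.74, limma adjusted p = 0.496). After scaling the values were 154 and 124 against 162 and 171 units, so that knockdown replicate 3 lay only just above control replicate 1 (0.27 ± 0.12 SE, 95% interval 0.02 to 0.53, limma adjusted p = 0.453). Without control replicate 1 limma called Cacna1c higher on deposited units (log2 fold change 0.45, limma adjusted p = 6.72e-06), in a fit where the median of all genes was 0.30. With scaling as well it was not called (0.42, limma adjusted p = 0.763). Dcp1b, a decapping cofactor gene on the opposite strand, overlaps the start of Cacna1c and holds 0.0807 of its level. Markers of vascular smooth muscle, a cell type that carries Cacna1c, summed to 8.57 and 13.1 units against 24.5 and 19.3, higher in both knockdown pools, with 0 of 5 tested markers called by limma or edgeR and 2 at an unadjusted limma p under 0.05. Their part in the level of Cacna1c was not tested.

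Cacna1d, the pore of the other L-type channel of beta cells, which opens at lower voltages, lies on chromosome 14 (30039941 to 30491156, minus strand). Its values were 126 and 85.0 units without knockdown and 119 and 109 with it, the latter both within the range of the controls. The log2 fold change was -0.03 ± 0.24 SE (95% interval -0.49 to 0.44, limma adjusted p = 0.934) and -0.04 after scaling. Without control replicate 1 it was called higher on deposited units (0.12, limma adjusted p = 0.0478), again before subtraction of the median of 0.30, and was not called with scaling as well (0.0959, limma adjusted p = 0.920). Dcp1a, the paralog of Dcp1b, overlaps the start of Cacna1d on the opposite strand and holds 0.195 of its level, and Chdh at the other end holds 0.0411. The 2 L-type genes thus each face a Dcp1 gene, and each value may contain reads of that neighbour.

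Cacna1a, the pore of the P/Q-type channel, which also triggers transmitter release at synapses, stood at 72.8 and 51.2 units without knockdown and 70.0 and 70.1 with it. The knockdown pools fell between the 2 controls (log2 fold change 0.03 ± 0.24 SE, limma adjusted p = 0.893). Cacna1h, a low-voltage-activated T-type pore, was scarce, at 6.68 and 4.19 units against 5.22 and 7.12, or 46, 34, 40 and 56 reads. Its groups overlapped (0.00 ± 0.30 SE, 95% interval -0.58 to 0.59, limma adjusted p = 0.938).

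Cacna1e, the R-type pore, was all but unread. It had 0 reads in both controls and in knockdown replicate 4, and 2 reads (0.261 units) in knockdown replicate 3. A count of 0 allows up to 3 reads, or 0.436, 0.370 and 0.382 units in these libraries, for counting error only, and no fold change is given. Its row covers 333 kb (chromosome 1, 154392519 to 154725920, minus strand), while the GENCODE gene runs to 154884501. Among the 544 rows of at least 300 kb, 50 (9.19%) held 2 reads or fewer over the 4 libraries, against 32.7% of all rows.

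Among the auxiliary subunits, Cacnb2 and Cacnb3 encode cytoplasmic β subunits and Cacna2d1 encodes the α2δ subunit that gabapentin binds. Cacnb2 was read at 65.5 and 49.8 units without knockdown and 63.8 and 73.8 with it, with overlapping groups (log2 fold change 0.09 ± 0.24 SE, limma adjusted p = 0.842). Cacnb3 stood at 39.2 and 34.5 against 44.5 and 44.3 units. Both knockdown pools lay above both controls, yet after scaling the 4 values ran from 37.8 to 41.9 units, with 40.7 in control replicate 2 and 41.3 in knockdown replicate 3 (0.10 ± 0.25 SE on deposited units, limma adjusted p = 0.843). Cacna2d1 was the gene whose controls differed most, at 168 and 98.3 units, a 1.71-fold gap that enclosed the knockdown values of 119.8 and 124. Its log2 fold change was -0.24 ± 0.23 SE (95% interval -0.70 to 0.22, limma adjusted p = 0.970), and -0.25 ± 0.14 SE after scaling, where the values were 162 and 116 against 111 and 117. Limma called it lower when control replicate 2 was left out (-0.49, limma adjusted p = 0.0381, but 0.340 with scaling as well), and without control replicate 1 the value was 0.01.

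The pumps were the most abundant of the 10 genes, also per kb of exon. Atp2a2 encodes SERCA2, the pump found in nearly all cells, and Atp2a3 encodes SERCA3, which beta cells carry beside it. Atp2a2 (chromosome 5, 122453513 to 122502225, minus strand) stood at 1154 and 776 units without knockdown and 829 and 1066.5 with it, so that the knockdown pools fell within the range of the controls. Its mean was 965 ± 267 against 948 ± 168 units (SD, n = 2 each), with a log2 fold change of -0.17 ± 0.21 SE (95% interval -0.59 to 0.24, limma adjusted p = 0.996). Atp2a3 (chromosome 11, 72961169 to 72993043, plus strand) gave 682 and 482 units without knockdown and 459 and 531 with it. Here knockdown replicate 3 was lowest and replicate 4 lay between the controls. The log2 fold change was -0.38 ± 0.22 SE (95% interval -0.81 to 0.05, limma adjusted p = 0.859). After scaling the groups separated, at 658 and 569 against 426 and 503 units, and the change was -0.40 ± 0.12 SE (95% interval -0.63 to -0.16) with a limma adjusted p of 0.108. The edgeR adjusted p was 0.308 and that of DESeq2 0.178. Atp2a3 was called lower by limma without control replicate 2 (-0.50, limma adjusted p = 0.00218, but 0.339 with scaling as well) and, after scaling, without knockdown replicate 4 (-0.52, limma adjusted p = 0.0147). Neither pump overlaps another row of the table.

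**Figure D2:**
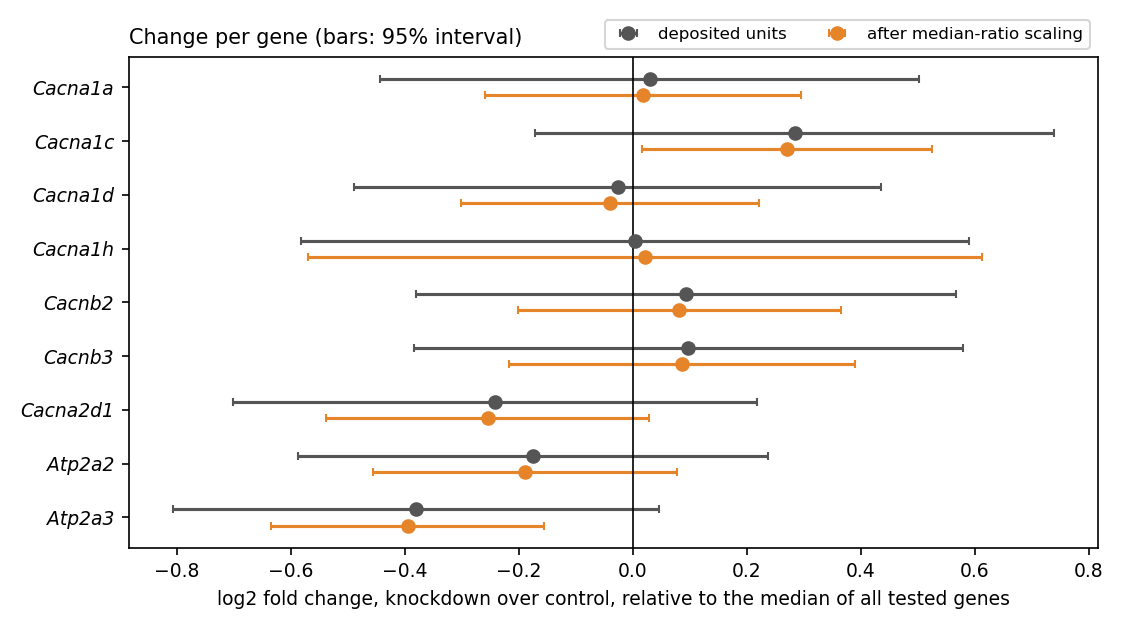
Log2 fold change of each tested gene, knockdown over control relative to the median of all tested genes, with 95% intervals from limma on deposited units (grey) and after median-ratio scaling (orange). On deposited units every interval holds 0; after scaling those of Cacna1c (0.02 to 0.53) and Atp2a3 (-0.63 to -0.16) do not, and neither gene passed the adjusted test.

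A ratio of 2 genes in the same library does not depend on scaling, so 3 ratios were taken between paralogs. With 2 against 2 libraries the smallest two-sided exact permutation p is 0.333, and the ratios are given without a test. Cacna1c was read at 1.27 and 1.24 times the level of Cacna1d in the controls and at 1.46 and 1.66 times in the knockdown libraries. The means were 1.25 ± 0.0230 and 1.56 ± 0.136 (SD, n = 2 each), a gap larger than either group's spread. Of all tested genes, 20.3% likewise had a ratio to Cacna1d that was higher in both knockdown libraries than in both controls, and 11.1% one that was lower. With every unit of the overlapping rows subtracted, an upper bound on their part, the ratios were 1.47 and 1.51 against 1.76 and 2.02. As a share of the summed units of the 5 α1 genes, Cacna1c made up 43.8% and 42.8% without knockdown and 47.2% and 49.2% with it. Cacna1d made up 34.5% and 34.6%, then 32.3% and 29.7%, and Cacna1a 19.9% and 20.9%, then 19.0% and 19.1%. The L-type mix of reads was thus further towards Cacna1c in both knockdown pools, a direction seen against Cacna1d in 20.3% of all tested genes. The α1 shares are parts of the same sum and are not separate from this ratio.

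Atp2a3 was read at 0.591 and 0.621 times the level of Atp2a2 in the controls and at 0.554 and 0.498 times in the knockdown libraries. The means were 0.606 ± 0.0215 and 0.526 ± 0.0397, and both knockdown values lay below both controls. Among all tested genes, 4.01% had a ratio to Atp2a2 that was lower in this sense, and 25.1% one that was higher. Leaving out single libraries moved the log2 difference of this ratio between -0.28 and -0.13, around a value of -0.21. The ratio of Cacnb3 to Cacnb2, by contrast, was 0.599 and 0.693 against 0.697 and 0.600, and its groups overlapped, while 11.2% of all tested genes had a ratio to Cacnb2 that was higher and 26.9% one that was lower without overlap.

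**Figure D3:**
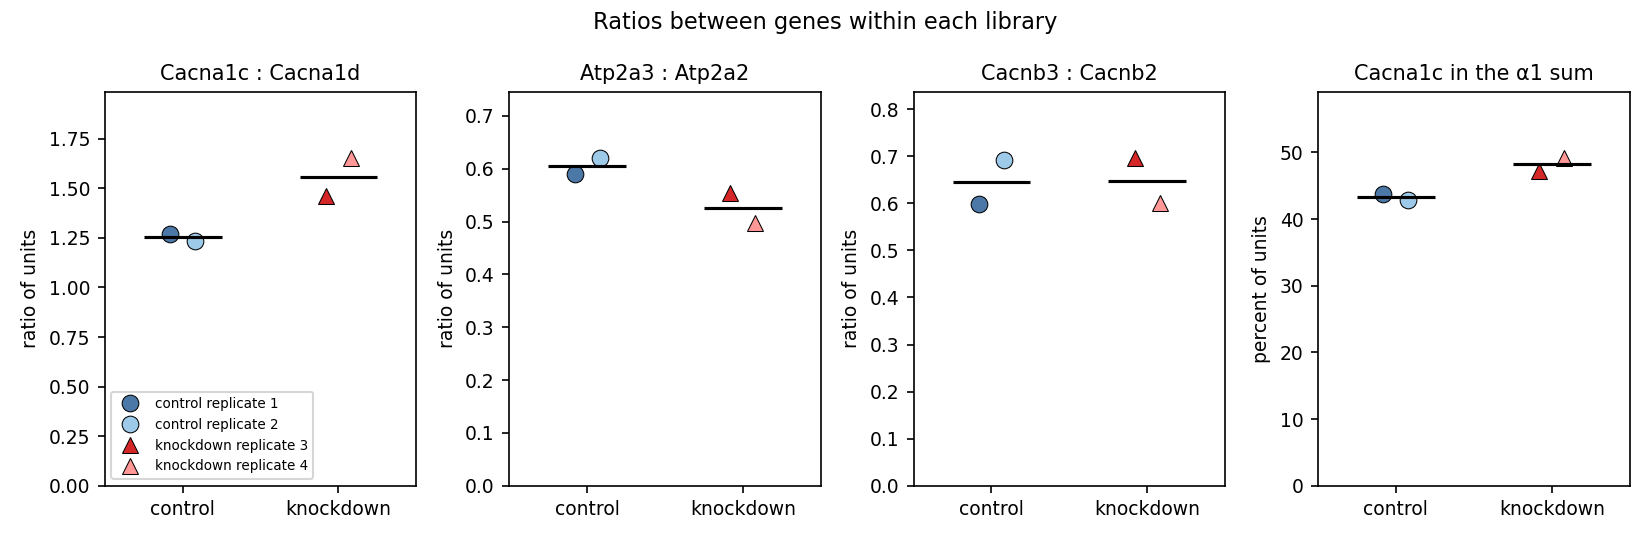
Ratios between paralogs and the share of Cacna1c in the summed α1 units, by library; points are libraries and bars group means, and all axes start at 0. Cacna1c over Cacna1d is higher in both knockdown libraries (1.46 and 1.66) than in the controls (1.27 and 1.24), Atp2a3 over Atp2a2 is lower, and Cacnb3 over Cacnb2 overlaps.

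Levels of different genes can be compared only per length. Divided by the length of annotated exons, the mean over 4 libraries was 157 units per kb for Atp2a2 and 102 for Atp2a3. These were followed by Cacna2d1 at 10.3, Cacnb3 at 10.1, Cacna1d at 8.70, Cacna1c at 7.31, Cacna1a at 5.78, Cacnb2 at 4.78 and Cacna1h at 0.594 units per kb. The order of Cacna2d1 and Cacnb3 held in only 1 of 4 libraries and that of Cacnb3 and Cacna1d in 3, so these neighbours cannot be ranked. All other neighbours kept their order per kb of exon within each of the 4 libraries. However, only the steps from Atp2a3 to Cacna2d1, from Cacnb2 to Cacna1h and from Cacna1h to Cacna1e exceeded the range over libraries. Exons make up 2.80% of the gene span of Cacna1d but 32.8% of that of Cacnb3, so intronic reads can add unequally to these values. Per kb of the whole span Atp2a2 stood at 19.6, Atp2a3 at 16.9 and Cacnb3 at 3.33 units. The other tested genes were Cacna1a at 0.294, Cacna2d1 at 0.290, Cacna1c at 0.254, Cacna1d at 0.243, Cacnb2 at 0.165 and Cacna1h at 0.0976. Cacna1c thus stood above Cacna1d, the reverse of their order per kb of exon, so that order depends on the length used. Reads of overlapping rows were not subtracted from any of these values.

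The remaining calcium-handling genes were taken from 7 lists. Beside 2.53% of all tested genes called by limma in either direction, 1 gene was called in these lists, and edgeR and DESeq2 called 0. It was Gem, a small GTPase that binds β subunits and restrains calcium channels, at 0.872 and 3.21 units without knockdown and 5.48 and 5.85 with it. Gem rests on 6, 26, 42 and 46 reads (log2 fold change 1.08 ± 0.35 SE, limma adjusted p = 0.0198). Scaling ended the call (limma adjusted p = 0.255), as did edgeR (adjusted p = 0.366) and limma without control replicate 1 (adjusted p = 0.256), knockdown replicate 3 (0.358) or knockdown replicate 4 (0.175). Of the other channel regulators, 6 of 11 being tested with Gem, Tspan13, a tetraspanin, was highest in units though not per kb of span, at 109 and 94.0 against 92.3 and 104.5 units. The list's median was -0.23.

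Other voltage-gated channel subunits were present at low levels, with 10 of 18 tested, 0 called and a median log2 fold change of 0.11. Cacna2d4, another α2δ gene, had the only unadjusted p under 0.05, at 6.10 and 4.93 units without knockdown and 10.955 and 10.3 with it (0.67 ± 0.28 SE, limma adjusted p = 0.0793, 0.277 after scaling, edgeR 0.285). It overlaps Lrtm2. The N-type pore Cacna1b stood at 10.8 and 9.37 against 6.52 and 8.14 units, both knockdown pools below both controls (limma adjusted p = 0.688). The T-type pore Cacna1i stood at 2.33 and 0.987 against 0.261 and 0.636 units, and the β subunit Cacnb4 at 2.76 and 3.95 against 5.09 and 5.85 (limma adjusted p = 0.634 and 0.560). Cacna1s, the pore of skeletal muscle, and the γ subunits Cacng6 and Cacng8 had 0 reads in every library.

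Of genes for release from the endoplasmic reticulum and store-operated entry, 13 of 15 were tested, 0 were called, 1 had an unadjusted p under 0.05 and the median was -0.14. That gene was the ryanodine receptor Ryr3, at 1.16 and 0.987 against 4.70 and 1.78 units (limma adjusted p = 0.338). Ryr2 held 2 and 2 reads in the controls and 0 in both knockdown libraries. The inositol trisphosphate receptor Itpr3 stood at 81.1 and 58.7 against 87.5 and 76.8 units, the endolysosomal channel Tpcn1 at 49.1 and 40.6 against 51.4 and 53.2, and Saraf, which restrains store-operated entry, at 233 and 179 against 175 and 214 (limma adjusted p = 0.853, 0.883 and 0.969). Among SERCA partners and calcium buffers of the endoplasmic reticulum, 7 of 12 were tested, 0 were called, 0 had an unadjusted p under 0.05 and the median was -0.16. Mrln, whose micropeptide inhibits SERCA in skeletal muscle, stood at 13.7 and 13.0 against 7.83 and 12.0 units, and the chaperone Calr at 525 and 402 against 441 and 485 (limma adjusted p = 0.649 and 0.996). The calcium-binding protein gene Sri stood at 23.2 and 22.2 against 26.9 and 27.9 units, and the chaperone Canx at 482 and 393 against 412 and 495 (limma adjusted p = 0.852 and 0.977). The SERCA inhibitor genes Pln and Sln were all but unread: Pln had 4 reads in control replicate 1 and 0 in the other libraries, and Sln 0 reads in all 4.

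Extrusion and Golgi pump genes had 9 of 15 tested, 0 called, 0 with an unadjusted p under 0.05 and a median of -0.14. The sodium-calcium exchanger Slc8a2 stood at 4.07 and 4.69 against 2.61 and 2.29 units (limma adjusted p = 0.548), and the potassium-dependent exchanger Slc24a2, highest of its list in units though not per kb of span, at 145.6 and 98.4 against 112 and 133. The mitochondrial exchanger Slc8b1 stood at 1.74 and 2.71 against 3.39 and 3.31 units, and the Golgi pump Atp2c1 at 118 and 98.2 against 118 and 121 (limma adjusted p = 0.808 and 0.929). Mitochondrial calcium uptake genes, all 11 tested, had 0 called, 1 with an unadjusted p under 0.05 and a median of -0.003. The uniporter pore Mcu stood at 15.4 and 13.6 against 20.3 and 17.0 units, and Mcub, its dominant-negative paralog and the gene with the unadjusted p, at 3.78 and 4.44 against 5.74 and 8.14 (limma adjusted p = 0.755 and 0.435). Vdac1, the outer membrane channel, was highest in units though not per kb of span, at 76.7 and 65.1 against 85.7 and 82.2 units (limma adjusted p = 0.854). Calcium sensors and effectors had 18 of 20 tested, 0 called, 0 with an unadjusted p under 0.05 and a median of 0.03. The calcineurin subunit gene Ppp3ca stood at 28.5 and 28.1 against 40.7 and 35.4 units (limma adjusted p = 0.629), the transcription factor gene Nfatc1 at 17.7 and 11.8 against 22.2 and 15.5 (0.777), and the kinase gene Camk4 at 1.16 and 0.247 against 1.57 and 1.53 (0.787). Camk1d is one of the 15 rows above 25000 units, at 59618 to 61962 units in the 4 libraries (limma adjusted p = 0.984). Its row spans 421 kb, with 144 units per kb of span against 47839 for the insulin gene Ins2. Where in the row its reads lie was not tested, so the value cannot be read as the level of the kinase transcript.

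**Figure D4:**
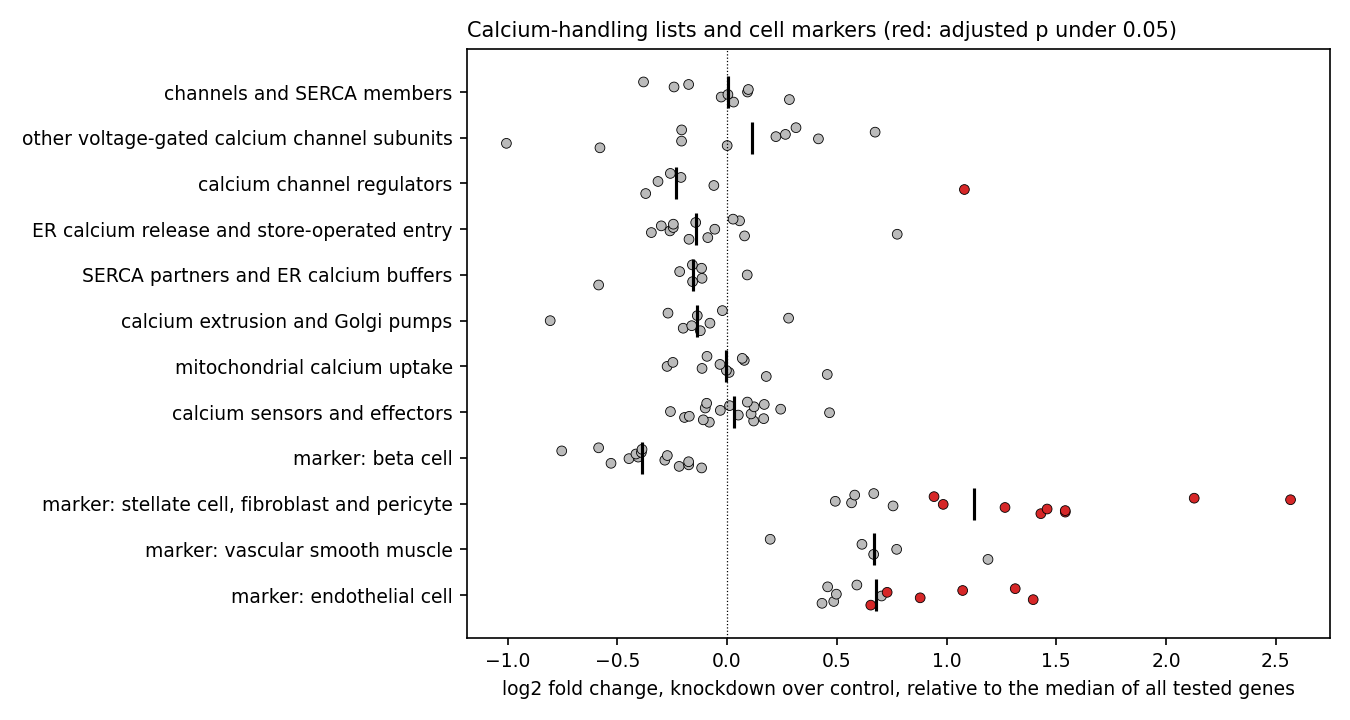
Log2 fold change of each tested gene (points) and median (bar) for the channels and pumps, the 7 calcium-handling lists and 4 marker lists; red points have a limma adjusted p under 0.05. In the calcium lists only Gem is red, whereas the stellate and endothelial lists lie wholly to the right of 0 with 9 of 14 and 6 of 12 genes called. Of all tested genes 2.49% were called higher.

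Sums over markers of stellate, smooth muscle, endothelial, duct and macrophage cells were higher in both knockdown pools on both scales. Alpha cell sums (6033 and 6673 against 7122 and 7032 units) and nerve cell sums were also higher on deposited units, but overlapped after scaling. Gcg held most of the alpha cell sums, at 5422 and 6159 against 6652 and 6488 units. The alpha list's median log2 fold change was -0.20, with 2 of 7 markers above the median of all tested genes. Delta cell sums overlapped on deposited units (976 and 817 against 862 and 849) and lay lower after scaling (942 and 964 against 800 and 804). Of the 4 delta markers 1, Hhex, lay above the median of all tested genes. It was higher in both knockdown pools on both scales, with 8.14 and 3.70 against 10.6 and 9.28 deposited units. Limma called no endocrine, acinar or nerve cell marker on deposited units, where it called 0.0443% of all tested genes lower. Markers of the labelled tissue were read: summed over 14 beta cell markers the values were 100514 and 79364 without knockdown and 84369 and 91728 with it, with 0 called by limma, 1 at an unadjusted p under 0.05 and a median log2 fold change of -0.39. After scaling, limma called 2 of the 14 lower, Mafa and Trpm5, as many as edgeR did, beside 0.163% and 0.148% of all tested genes. Of the 14, 10 had an unadjusted p under 0.05 (8 by edgeR), beside 10.3% of all tested genes with each test. The scaled sums did not overlap, at 96938 and 93609 against 78316 and 86869 units, and 20% of all tested genes also lay lower without overlap. Ins1, Ins2 and Iapp hold most of the sums, with 29026, 58452 and 9765 deposited units in control replicate 1. Summed markers of stellate cells, fibroblasts and pericytes stood at 129 and 133 units without knockdown and 424 and 313 with it. Limma called 9 of 14 higher (8 after scaling and 8 by edgeR), beside 2.49% of all tested genes (1.12% after scaling and 1.29% by edgeR). On deposited units 34.9% of all tested genes were higher in both knockdown pools than in both controls. Duct cell markers summed to 648 and 578 against 1231 and 797 units, with 4 of 8 tested called higher (2 after scaling and 3 by edgeR), and acinar markers to 2467 and 5169 against 4434 and 2063, with overlapping groups. Endothelial markers summed to 198 and 169.97 against 390.3 and 300.3 units, with 6 of 12 called (4 after scaling and 4 by edgeR), and neuron and Schwann cell markers to 127 and 119 against 155 and 139, with 0 of 7 called by limma or edgeR and 1 at an unadjusted limma p under 0.05. Macrophage markers summed to 14.4 and 17.4 against 31.6 and 25.4 units, with 2 of 5 tested called higher (1 after scaling and 1 by edgeR). The genes called were Lyz2 and Cd14, and only 2 of 5 lay above the median of all tested genes. The list's median log2 fold change was -0.03, so the higher sum is not shared by the list as a whole. Among the beta cell, stellate, smooth muscle, endothelial and neuron lists no marker was at 0 in all libraries. The part of these cells in the ratio of Cacna1c to Cacna1d, and of the beta cell markers in the values of Atp2a3, was not tested.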

How the data were processed

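Each of the 4 libraries is a pool of islets, and labels gave 2 control and 2 knockdown samples. The authors deposited 1 table, and the signal it holds is scaled to 10000000 reads per library without gene length, although its name announces FPKM. Per the submitters' processing notes, which give no roles, STAR 2.5.1b, HOMER 4.9, edgeR and mm10 were used. Reads were recovered by dividing by the value of 1 read, which left 100% of values whole to within 0.01 reads. The length column equals the genomic span in 99.2% of rows.

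Rows averaging 1 unit or more and 200 nt or longer (13531) entered a two-sided limma 3.58.1 fit (R 4.3.3) of log2(value + 1), with the variance trended on the mean and Benjamini-Hochberg adjustment at 0.05. The log scale understates changes of low genes. The prior degrees of freedom were infinite on deposited units, so that the trend replaced each gene's own spread. They were 21.2 after median-ratio scaling. edgeR 4.0.16 and DESeq2 1.42.0 were run on recovered reads.

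Named genes are the 10 members, Taz, and of each calcium list the called genes, or otherwise the 3 with the smallest limma p, and the highest mean in units. Slco1a5, Iapp, Ryr2, Pln, Sln, Cacna1s, Cacng6, Cacng8, Mafa, Trpm5, Gcg, Hhex, Cd14 and Lyz2 were named after their values were seen. Members, lists and tests were chosen with earlier results of these data known. Alternatives covered scaling, pseudocount, filter, trend, count tests and leaving out each library.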

Additional observations from a re-analysis of the deposited data

How the results depend on the processing

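The labels give no pairing of control with knockdown pools, so no paired analysis was made. Over all genes 337 were called higher and 6 lower. The counts were 151 and 22 after median-ratio scaling, 228 and 17 with a library size without the 15 most abundant rows, 0 and 0 with no filter on low values (1484 genes at an unadjusted p under 0.05), 528 and 16 without the trend, 174 and 20 by edgeR, 83 and 11 by DESeq2 and 160 and 18 by edgeR on halved reads. Leaving out single libraries gave 28 (knockdown replicate 3) to 1266 (control replicate 1) higher and 3 (knockdown replicate 4) to 59 (control replicate 2) lower. With scaling as well, the counts were 0 and 0 without control replicate 1 (836 genes at an unadjusted p under 0.05), 2 and 0 without control replicate 2, 45 and 49 without knockdown replicate 3, and 329 and 68 without knockdown replicate 4. Of the 9 channel and pump genes 0 were called with all libraries in any setting, 2 (Cacna1c and Cacna1d) higher without control replicate 1, 2 (Cacna2d1 and Atp2a3) lower without control replicate 2, and 1 (Atp2a3) lower after scaling without knockdown replicate 4. The cause was not tested.

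Cacna1c, Cacnb3 and Atp2a3 kept their sign in all 17 alternatives, with log2 fold changes of 0.12 to 0.45, 0.03 to 0.14 and -0.52 to -0.27. The other 6 genes changed sign when 1 library was left out. The ranges were -0.0853 to 0.144 for Cacna1a, -0.172 to 0.118 for Cacna1d, -0.206 to 0.205 for Cacna1h, -0.0271 to 0.205 for Cacnb2, -0.489 to 0.0056 for Cacna2d1 and -0.373 to 0.0144 for Atp2a2. With scaling as well, the changed signs were Cacna1a at -0.0876 without control replicate 2 and -0.000517 without knockdown replicate 4, Cacna1d at 0.0959 without control replicate 1 and 0.00464 without knockdown replicate 4, Cacna1h at -0.139 without control replicate 2 and -0.186 without knockdown replicate 4, Cacnb2 at -0.0397 without knockdown replicate 4, and Atp2a2 at 0.00151 without knockdown replicate 3. A pseudocount of 5 turned Cacna1d to 0.00681 and Cacna1h to -0.0237. For these the cause was not tested. Cacna1e, with 2 reads in all, averaged below the filter of 1 unit and was not tested. Scaling with 1 library left out, halved reads and the subtraction of overlapping rows were chosen after seeing the data.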

Other observations

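Recovered read counts were mostly even. Of values from 1 to 4 reads, 81.6% to 83.6% were even in the 4 libraries, and of values from 21 to 100 reads 74.8% to 76.2%. Single reads therefore cannot be taken as independent fragments, and limits and tests that count reads overstate the depth. With reads halved, the edgeR adjusted p of Atp2a3 was 0.324 and that of Cacna1c 0.561, beside 0.308 and 0.578 on full reads.

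Some rows lie wholly inside a channel gene. Their reads bear on the spread of the channel gene's own reads only if whole spans were counted without strand, which the sources used here do not give. 4831407H17Rik, 5.25 kb on the opposite strand inside Cacna1d, held 2 reads over the 4 libraries, where an even spread of the reads of Cacna1d over its span would put 38.7 there. 4931430N09Rik, 5.39 kb on the opposite strand inside Cacna1c, held 28 reads against 41.6 for an even spread. Gm13315, 1.98 kb on the same strand inside Cacnb2, held 2 reads against 9.93.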
